A study of Mus musculus with 6 samples.

Results

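The NR4A orphan nuclear receptors are encoded by Nr4a1, Nr4a2 and Nr4a3, and their rows were taken by symbol from a table of 35976 genes measured in mouse heart. All 3 were among the 14879 genes with enough counts to be tested. The edited hearts came from wild-type mice that had received an adeno-associated virus (AAV) in which a MYL2 promoter, active in ventricular heart muscle, drives the adenine base editor TadA8e fused to the Cas9 protein Sauri, and a U6 promoter drives sgRNA7, a guide against Camk2d. The control hearts came from wild-type mice with no treatment, so they carried neither virus nor editor nor guide. Each group held 3 libraries of total RNA from heart. The sources used here do not give age, sex, dose, time after injection or the part of the heart, and nothing states that the libraries of a group came from separate animals. The edit was aimed at the donor splice site of intron 7 of Camk2d, which encodes the CaMKII form that predominates in heart muscle. The receptors were chosen by their measured difference in counts between these same edited and control libraries, so their levels and changes are given as a description, with no test.

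NR4A receptors bind DNA through a nuclear receptor zinc finger domain, either alone at a site called NBRE or in pairs at a longer site called NurRE. Their ligand pocket is filled by bulky side chains, so their activity is set largely by how much receptor a cell makes. They are early response genes: calcium, cyclic AMP and beta-adrenergic stimulation raise their transcription quickly through the factor CREB at cyclic AMP response elements (CREs) and through MEF2 factors, which class IIa histone deacetylases hold in check until kinases such as CaMKII export them from the nucleus. In striated muscle they are known for control of genes of glucose and lipid use.

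Total counts per library ranged from 17062412 to 23097998. The targeted gene, Camk2d, stood at 226, 220 and 224 CPM (counts scaled to a common library size with TMM factors) in controls 1, 2 and 3 and at 138, 130 and 164 CPM in edited 1, 2 and 3, with no overlap. Heart muscle markers were abundant in all 6 libraries. The summed level of 6 such genes was 64600 to 67200 CPM in controls and 54300 to 58200 CPM in edited hearts. Of the 6, 4 were called lower by edgeR's quasi-likelihood test at an adjusted p below 0.05. Of all tested genes, 4.74% were called lower and 4.93% higher. The sum of 4 ventricular markers was 10200 to 12400 CPM in controls and 9400 to 9930 CPM in edited hearts, with 1 called higher and 1 lower. The sum of 6 fibroblast markers was 3190 to 3850 CPM in controls and 3770 to 5280 CPM in edited hearts, with 1 called higher. Atrial transcripts set libraries apart within the control group: the sum of 5 atrial markers was 42.2, 1880 and 20.2 CPM in controls 1, 2 and 3 and 1160 to 2680 CPM in edited hearts. Of these, Myl7, an atrial myosin light chain, was at 6.88, 332 and 0.209 CPM in the controls and 542, 371 and 914 CPM in edited 1, 2 and 3. Bmp10, an atrial growth factor, was at 102 CPM in control 2, at most 0.112 CPM elsewhere and 0 in edited 1 and 2, and Sln was at 0 in control 3. Of 6 mesothelial markers 4 were called higher in edited hearts and 1 lower, and their sum was 26.9 to 27.3 CPM in controls and 29.4 to 50.5 CPM in edited hearts. The sum of 7 macrophage and monocyte markers was lower in every edited library, at 107 to 119 CPM in controls and 93 to 102 CPM in edited hearts, with 0 of 7 called. Edited 2 stood apart in 4 adipocyte markers, whose sum was 36 CPM there and at most 3.85 CPM elsewhere. The part of these cell types in the results was not tested beyond the fits with control 2 alone and with Myl7 as a covariate. Values are therefore also given with control 2 as the only control. The Myl7 fit rests largely on that library too. In whole tissue, fewer cells of a type and less RNA per cell cannot be told apart.

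The proximal promoters of the receptors are shown because CRE motifs are their best known route of induction and because the receptors share them. The sequences are the gene strand of RefSeq windows (GRCm38.p6, the same assembly as mm10), matched by symbol for all 3 genes. Capitals mark the CRE core TGACG or its reverse complement CGTCA and, in Nr4a2, a match to the MEF2 consensus. For Nr4a1 and Nr4a2 the 250 bases before the transcript start are given, chr15:101266596-101266845 on the plus strand and chr2:57124004-57124253 on the minus strand. The Nr4a3 window lies within the first exon of a longer transcript, so 2 short stretches are given, chr4:48045088-48045117 and chr4:48045146-48045175 on the plus strand.
Nr4a1: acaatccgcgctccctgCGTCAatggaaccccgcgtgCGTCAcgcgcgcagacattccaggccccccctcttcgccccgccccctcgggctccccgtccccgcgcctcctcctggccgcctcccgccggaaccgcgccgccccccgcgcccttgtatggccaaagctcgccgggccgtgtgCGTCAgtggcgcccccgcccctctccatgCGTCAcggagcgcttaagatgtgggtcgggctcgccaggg
Nr4a2: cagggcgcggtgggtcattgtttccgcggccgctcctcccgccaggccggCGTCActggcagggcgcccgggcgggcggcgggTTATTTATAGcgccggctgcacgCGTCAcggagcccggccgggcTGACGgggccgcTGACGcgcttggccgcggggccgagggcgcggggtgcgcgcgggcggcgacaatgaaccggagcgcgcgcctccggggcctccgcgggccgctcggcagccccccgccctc
Nr4a3, first stretch: atgtCGTCAcatTGACGtctcgcattccag
Nr4a3, second stretch: ctgtggcataaaTGACGtgccgagagagcg

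Each of the 3 windows, which run from 250 bases before the start to 50 after it, held 4 CRE cores on either strand. Of 32851 such mouse windows 20.8% held at least 1, and 76 (0.231%) held 4 or more; the number 4 was taken from the receptors themselves. The windows of Nr4a1, Nr4a2 and Nr4a3 were 72.3%, 81.7% and 64.7% G or C, against a median of 52.7% over all windows. Among the 9690 windows with at least 60% G or C, 0.557% held 4 or more. The full palindrome TGACGTCA, present in 1.79% of windows, was in none of the 3. In Nr4a1 the cores began at -233, -213, -69 and -40 bases from the start, all as CGTCA on the gene strand. In Nr4a2 they began at -200, -144, -123 and -111, in both orientations, beside a MEF2 match from -167 to -158, a motif found in 3.19% of windows. In Nr4a3 they began at -231, -213, -205 and -147. The receptors' own NBRE motif, AAAGGTCA (both strands, in 1.51% of windows), and the CArG box of serum response factor (1.63%) had no match in the 3 windows. These matches are letters in a window and not measured binding.

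**Figure D1:**
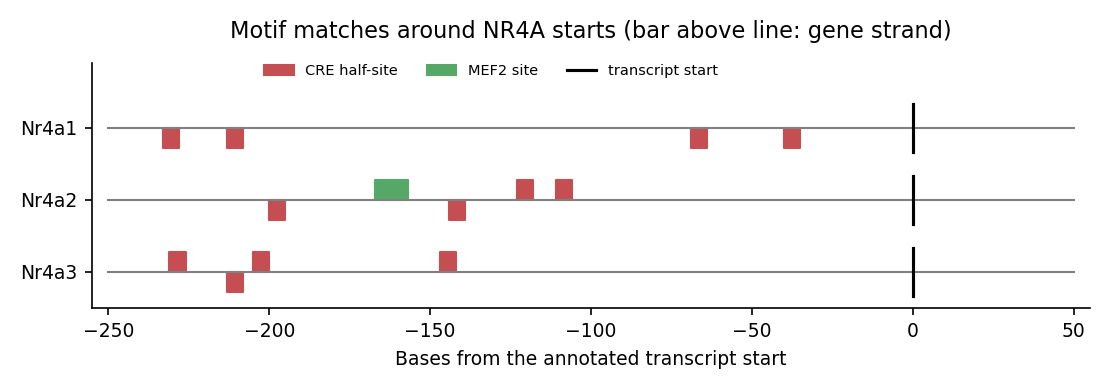
Positions of CRE cores (TGACG on either strand) and MEF2 matches in the windows of the 3 receptor genes, in bases from the annotated transcript start, with bars above a line for matches on the gene strand and below it for the other strand. Each window holds 4 CRE cores, and the MEF2 match is in Nr4a2.

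Nr4a3, also called NOR-1, differed most between the groups. Its mm10 position is chromosome 4, 48044889 to 48086447, plus strand, with 6312 exon bases and none shared with another gene of the deposited annotation. It was at 37.7, 31.2 and 49.96 CPM in controls 1, 2 and 3, from 631, 592 and 957 counts, and at 8.78, 11.3 and 15.6 CPM in edited 1, 2 and 3, from 206, 199 and 280 counts. Every edited library was below every control, and the lowest control exceeded the highest edited library by 15.5 CPM. The means were 39.6 ± 9.53 and 11.9 ± 3.47 CPM (SD, n = 3). The fitted log2 change, edited over control, was -1.75 (SE 0.30), or 29.7% of control, and ±2 SE spanned 19.7% to 44.8%. Groups did not overlap for 29.3% of all tested genes, and 14.7% were lower in every edited library. Counting error was small beside the spread: the control libraries varied by 24.1% of their mean and the edited ones by 29.2%, where counting alone gives 3.71% and 6.62%.

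Against control 2, the control with atrial RNA, the edited mean of Nr4a3 was also lower, with a log2 ratio of -1.39. Control 2 held 31.2 CPM of Nr4a3 at an atrial sum of 1880 CPM, and the edited libraries 8.78 to 15.6 CPM at atrial sums of 1160 to 2680 CPM. This comparison rests on 1 control library, and its atrial RNA was not matched in make-up. Bmp10 was at 102 CPM in control 2 and at most 0.112 CPM in edited hearts. The part of atrial RNA in the Nr4a3 difference was not tested. With Myl7 as a covariate the log2 change was -1.36 (SE 0.31). Myl7 was at most 6.88 CPM in controls 1 and 3 and at least 332 CPM in control 2 and the edited libraries. The Myl7 fit thus rests largely on control 2 and is not a separate check. The heart muscle marker sum was also lower in edited hearts, and its part in the difference was not tested.

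Nr4a1, also called Nur77, was lower by a smaller amount. Its position is chromosome 15, 101254213 to 101274795, plus strand, with 5069 exon bases and none shared. Its levels were 43.8, 39.2 and 49.0 CPM in controls 1, 2 and 3 (732, 744 and 938 counts) and 33.1, 24.7 and 36.2 CPM in edited 1, 2 and 3 (776, 437 and 649 counts). The groups did not overlap, but the gap between control 2 and edited 3 was 2.94 CPM, and the 95% counting intervals of those libraries, 36.4 to 42.1 and 33.5 to 39.1 CPM, did overlap. The means were 44.0 ± 4.89 and 31.3 ± 5.96 CPM (SD, n = 3), or 71.3% of the control level. The log2 change was -0.49 (SE 0.15). Against control 2 alone the log2 ratio was -0.32. With Myl7 as a covariate the log2 change was -0.33 (SE 0.21), smaller in size than 2 SE.

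Nr4a2, also called Nurr1 and best known from dopamine neurons, was scarce and its groups overlapped. Its position is chromosome 2, 57106830 to 57124003, minus strand, and 2.59% of its 6749 exon bases are shared with an uncharacterised locus on the same strand. Its levels were 3.71, 3.00 and 4.91 CPM in controls 1, 2 and 3 (62, 57 and 94 counts) and 3.80, 2.94 and 4.02 CPM in edited 1, 2 and 3 (89, 52 and 72 counts). The means were 3.87 ± 0.96 and 3.59 ± 0.57 CPM (SD, n = 3). The log2 change was -0.11 (SE 0.20), a range of 70.3% to 122% of the control level at ±2 SE. The control libraries varied by 24.9% of their mean and the edited ones by 15.9%, where counting alone gives 11.9% in each group. Without control 3 the log2 change was 0.10, without edited 2 it was 0.01, and with Myl7 as a covariate it was 0.30, so its direction rested on single libraries.

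**Figure D2:**
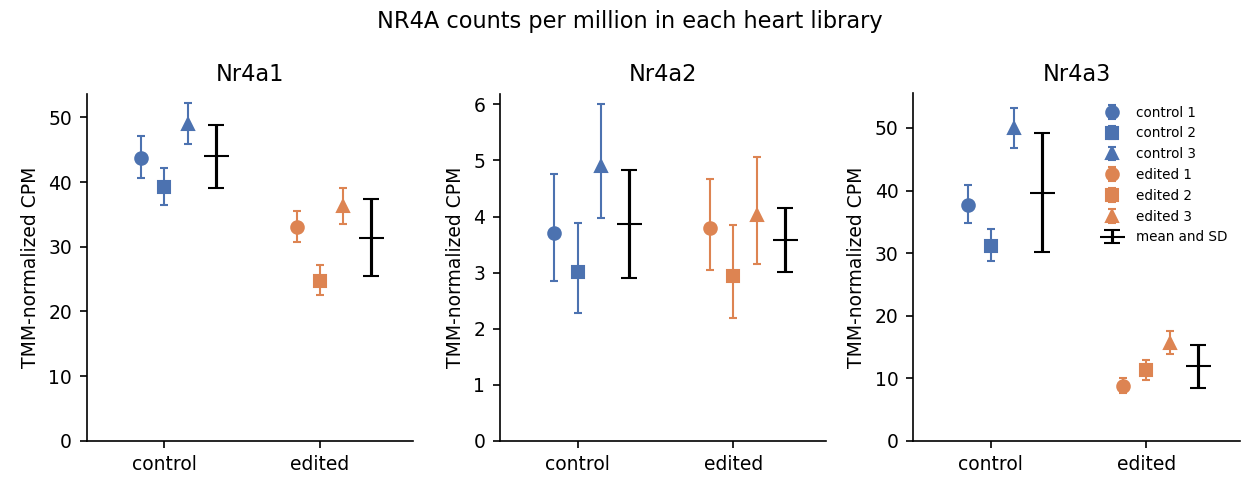
TMM-normalized CPM (vertical axis) of each receptor in the 3 control and 3 edited libraries; coloured bars are 95% Poisson counting intervals and black bars the group mean and SD. The edited libraries lie below all controls for Nr4a3 (8.78 to 15.6 against 31.2 to 49.96 CPM) and, by a small gap, for Nr4a1, and overlap them for Nr4a2.

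Per kilobase of exon, the order of the receptors was Nr4a1, Nr4a3, Nr4a2 in all 6 libraries. Nr4a1 had a level of 8.68 ± 0.97 CPM per kilobase in controls and 6.18 ± 1.18 in edited hearts, Nr4a3 6.28 ± 1.51 and 1.88 ± 0.55, and Nr4a2 0.57 ± 0.14 and 0.53 ± 0.08 (SD, n = 3). Nr4a1 and Nr4a3 were neighbours in controls, at 7.73 and 4.94 CPM per kilobase in control 2 and 9.66 and 7.92 in control 3. The summed level of the family was 15.2, 13.1 and 18.3 CPM per kilobase for controls 1, 2 and 3, against 8.48, 7.09 and 10.2 for edited 1, 2 and 3, so the sum in edited hearts was 55.4% of that in controls. The make-up of the family differed too. Nr4a3 supplied 37.7% to 43.2% of the family's level in controls and 16.4% to 25.1% in edited hearts. The ratio of Nr4a3 to Nr4a1 within a library, which does not depend on library scaling, was 0.692, 0.639 and 0.819 for controls 1, 2 and 3, against 0.213, 0.366 and 0.346 for edited 1, 2 and 3.

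**Figure D3:**
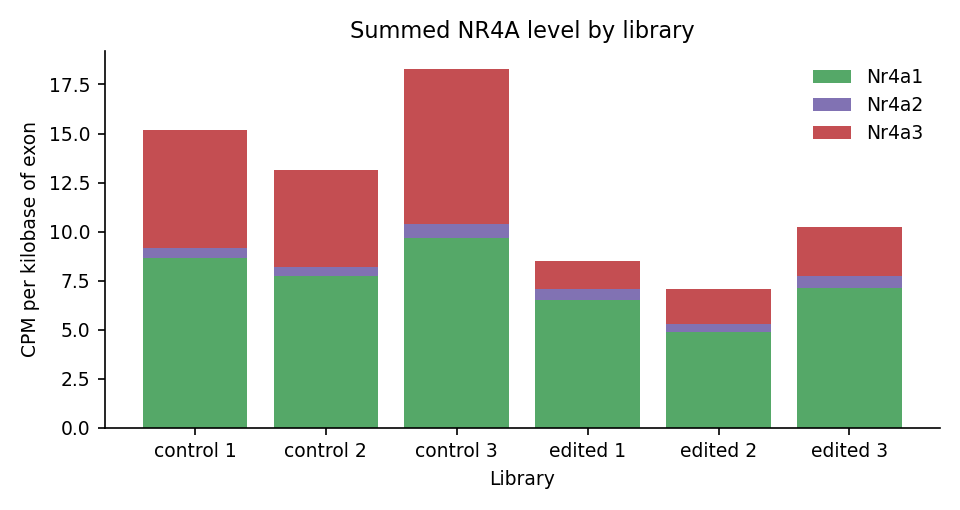
Summed level of the receptors in each library in CPM per kilobase of exon, with each bar split by gene. The bars reach 13.1 to 18.3 in controls and 7.09 to 10.2 in edited hearts, and the Nr4a3 segment makes up 37.7% to 43.2% of the control bars and 16.4% to 25.1% of the edited bars.

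Within the groups the receptors shared much of their order over libraries. In controls all 3 were highest in control 3, then control 1, then control 2, and in edited hearts all 3 were highest in edited 3. This order was taken from the receptors themselves. For Nr4a1 and Nr4a2 it lay in part within counting error. Their 95% counting intervals overlapped between edited 3 and edited 1, and between control 1 and each of controls 2 and 3. For Nr4a3 none of these intervals overlapped. Of all tested genes, 15.4% had that order of controls, 27.8% were highest in edited 3 among edited libraries, and 3.98% had both. Of 37 tested early response genes, 15 (40.5%) had the order of controls, 16 (43.2%) were highest in edited 3, and 7 had both: Btg2, Egr3, Ier3, Gem, Jun, Klf2 and Ier2, named after their values were seen. Some of these orders rest on very small gaps. Ier2 was at 31.4 and 31.5 CPM in controls 1 and 3, and Ier3 at 26.4 and 26.5 CPM in edited 1 and 3. Lower down, Nr4a1 and Nr4a2 were lowest in edited 2, and Nr4a3 in edited 1. The spread between replicates beyond counting was also wide. The biological coefficient of variation was 24.4% for Nr4a3 and 12.6% for Nr4a1, above 99.3% and 98.0% of genes of like abundance, whose medians were 6.29% and 6.20%. For Nr4a2 it was 15.2%, above 82.5% of such genes.

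**Figure D4:**
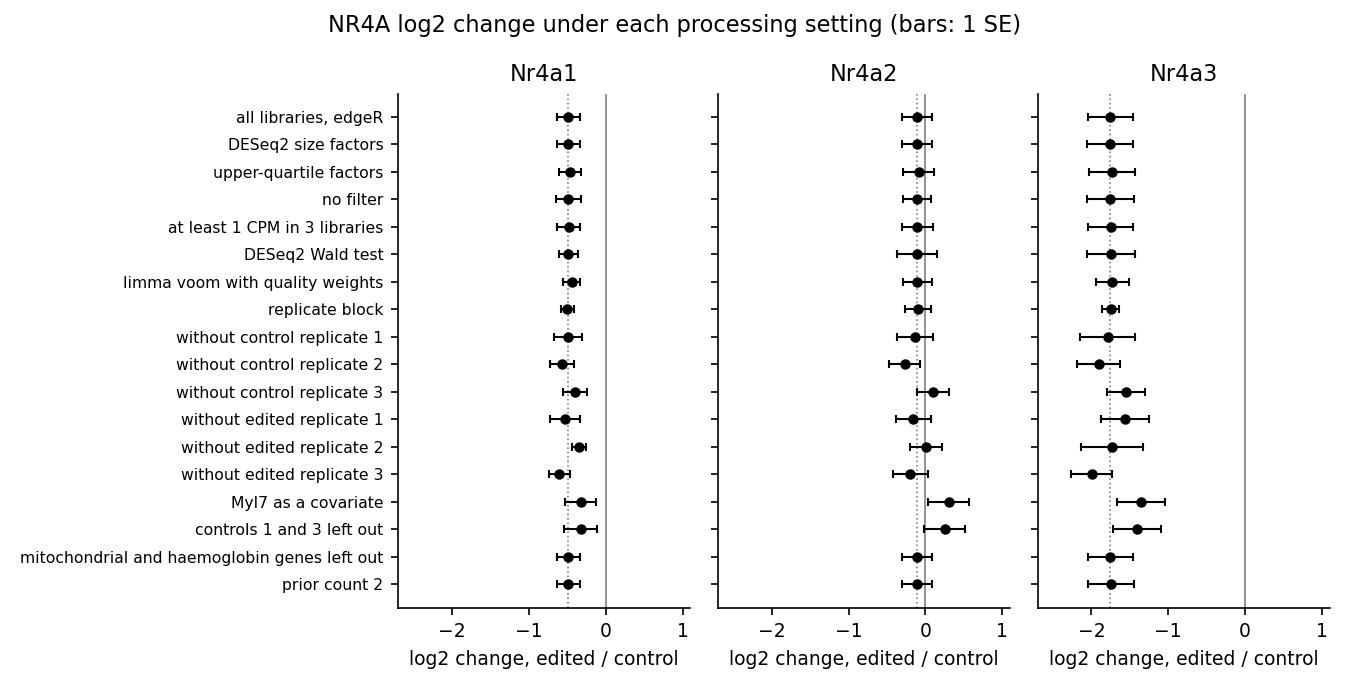
log2 change of each receptor, edited over control (horizontal axis), under each processing setting, with bars of 1 SE; the dotted line is the value with all libraries. Nr4a3 stays between -1.998 and -1.36 and Nr4a1 between -0.60 and -0.33, while Nr4a2 lies on both sides of 0.

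Among the 49 nuclear receptor genes of the table, Nr4a1 ranked 14th per kilobase in controls and 17th in edited hearts, Nr4a3 18th and 26th, and Nr4a2 34th and 33rd. Nr4a3 had the lowest log2 change of the 38 with enough counts, and of all 14879 tested genes 6 had a lower one. The other 46 receptors show the rest of the superfamily. Of the 35 of them tested, 6 fell and 3 rose by edgeR's quasi-likelihood test at an adjusted p below 0.05, against 4.74% of all tested genes called lower and 4.93% called higher, and the median log2 change of the list was -0.04 against 0.00 for all tested genes. Esrra, a receptor of mitochondrial genes, was the most abundant per kilobase and fell from 154 ± 7.86 to 131 ± 4.38 CPM (adjusted p 0.0182); 5.54% of its exon bases are shared with other genes, in part on the opposite strand, and reads there cannot be assigned without strand.

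Rxrg, a retinoid X receptor, fell from 38.7 ± 1.76 to 26.4 ± 3.43 CPM (adjusted p 0.00167), Nr3c2, the mineralocorticoid receptor, from 14.3 ± 1.19 to 10.4 ± 1.01 CPM (0.0114), and Ppara, a receptor of fatty acid oxidation genes, from 73.2 ± 6.89 to 50.4 ± 7.64 CPM (0.0194). Thrb, a thyroid hormone receptor, fell from 15.8 ± 2.98 to 11.0 ± 0.48 CPM (0.0183), and Nr2f2, an atrial and venous factor, rose from 26.1 ± 2.24 to 33.3 ± 3.05 CPM (0.0182; edgeR, SD, n = 3). Single libraries decided part of these calls: without control 3 those of Esrra (adjusted p 0.133), Ppara (0.0653) and Nr2f2 (0.127) were lost, without edited 3 those of Esrra (0.0833), Thrb (0.0739) and Nr2f2 (0.102), without edited 2 that of Ppara (0.107) and without control 1 that of Nr2f2 (0.0699). The other calls were Ppard lower and Esrrb and Rarb higher, outside the naming rule and given after their values were seen (adjusted p 0.0281, 0.0224 and 0.0463 by edgeR), and each was lost when any of several single libraries was left out. The falls numbered 3 without control 3 or edited 3, and the rises numbered 0 without control 1, control 3 or edited 3 and 1 without control 2 or edited 1. With Myl7 as a covariate 2 receptors were called lower and 0 higher, where 0.551% and 0.296% of all tested genes were. Of the 6 falls Thrb alone was still called in that fit. Thrb was itself highest in control 2, at 19.2 CPM against 13.7 and 14.4 CPM in controls 1 and 3, and the Myl7 fit rests largely on control 2. The other gene called lower was Vdr, which was not called without the covariate. Vdr was at 4.00 CPM in control 2 against 1.02 to 1.40 CPM elsewhere. With control 2 as the only control 1, Thrb, was lower and 0 higher, where 0.335% and 0.183% were.

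**Figure D5:**
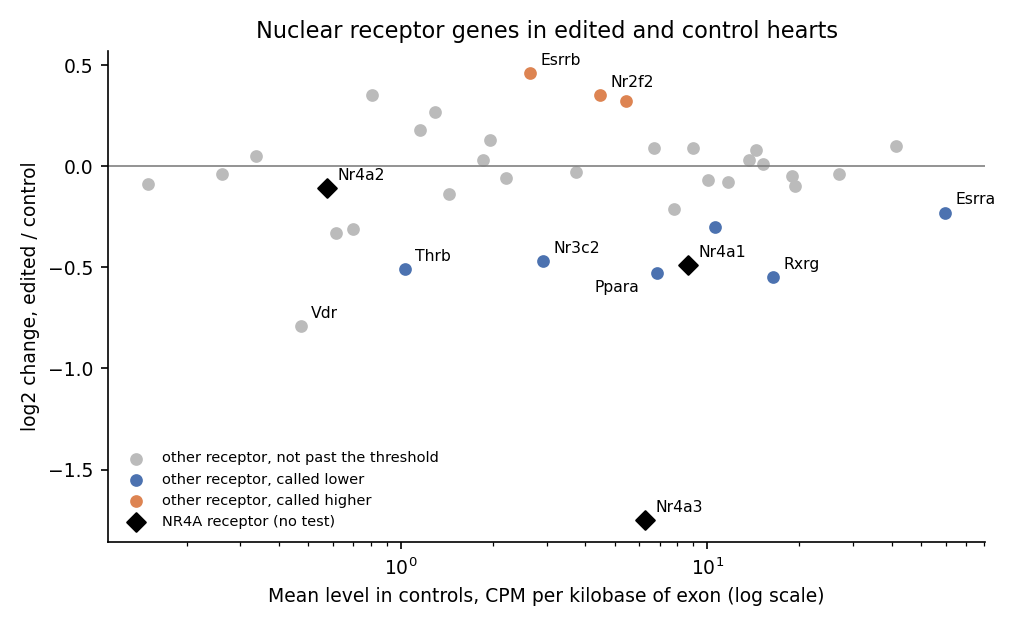
log2 change, edited over control (vertical axis), against the mean control level in CPM per kilobase (horizontal axis, log scale) for the 38 tested nuclear receptor genes; diamonds are the NR4A genes, for which no test is given, and colours give the call of the others. Nr4a3 lies at -1.75, below all others; Vdr, at -0.79, rests on 4.00 CPM in control 2 against 1.02 to 1.40 CPM in the other 5 libraries.

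The signals known to induce NR4A genes were followed in 38 genes: beta-adrenergic receptors, protein kinase A subunits, CREB-family factors and their coactivators, salt-inducible and D kinases, class IIa histone deacetylases, MEF2 and NFAT factors, calcineurin and others. Of these, 2 fell and 0 rose in edgeR's test, where 4.74% and 4.93% of all tested genes did, so the share of falls was near that of all genes. The median log2 change was -0.01. Crem, a CREB-family factor that is itself induced by cyclic AMP, was at 27.8, 27.0 and 30.6 CPM in controls 1, 2 and 3 and 19.5, 20.8 and 22.9 CPM in edited 1, 2 and 3. The groups did not overlap, and its log2 change was -0.44 (SE 0.08, adjusted p 0.00444). Prkaca, the main catalytic subunit of protein kinase A, fell from 369 ± 12.5 to 318 ± 7.53 CPM (SD, n = 3; adjusted p 0.0205 by edgeR); leaving out control 1, control 3 or edited 3 gave an adjusted p of 0.104, 0.112 or 0.0964. Without edited 1 the list had 4 falls and 2 rises, and without edited 2 or edited 3 it had 1 rise. With Myl7 as a covariate or control 2 as the only control neither fall was called, and Crem had log2 changes of -0.34 and -0.37 (adjusted p 0.202 and 0.27). Prkar1a, a regulatory subunit and the list's most abundant gene per kilobase, was at 655 ± 9.24 and 695 ± 55.8 CPM and not past the threshold. CREB itself (Creb1, named after its values were seen) was at 39.6 ± 1.25 and 41.5 ± 3.18 CPM.

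Of 40 early response genes 37 were tested, and 2 fell and 3 rose in edgeR's test, where 4.74% and 4.93% of all genes did, with a median log2 change of -0.05. Atf3, a stress-induced repressor, was at 22.1, 17.6 and 25.8 CPM in controls 1, 2 and 3 and 6.65, 11.0 and 8.10 CPM in edited 1, 2 and 3 (log2 change -1.37, SE 0.21, adjusted p 0.0132). Its groups did not overlap, and its call was lost without control 1 (0.0615) or edited 3 (0.0645). Dusp1, a phosphatase of MAP kinases, fell from 94.6 ± 2.13 to 77.2 ± 4.27 CPM (adjusted p 0.00635), a call lost without control 3 (0.0557). Cyr61, a secreted matrix protein, rose from 30.4 ± 3.10 to 38.6 ± 3.31 CPM, Btg1, an antiproliferative factor, from 60.03 ± 3.13 to 72.9 ± 7.26, and Dusp4 from 1.74 ± 0.18 to 2.93 ± 0.30 (SD, n = 3; adjusted p 0.0224, 0.0314 and 0.0311 by edgeR). All 3 rises were lost without control 1 (adjusted p 0.106, 0.0888 and 0.109), control 3 (0.124, 0.186 and 0.133) or edited 3 (0.0622, 0.132 and 0.114). The call of Btg1 was also lost without control 2 (0.0524) or edited 2 (0.066), and that of Dusp4 without edited 2 (0.0548) or with DESeq2 (0.123).

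Fos, a subunit of the AP-1 factor, had means of 2.93 ± 0.26 and 4.10 ± 0.85 CPM, and Egr1, a zinc finger factor, 20.3 ± 3.16 and 29.6 ± 7.35 CPM for controls and edited hearts (SD, n = 3). Neither passed (adjusted p 0.121 and 0.209 by edgeR), and both were named after their values were seen. DESeq2 called Egr1 higher (adjusted p 0.00779), and edgeR called Fos higher without edited 2 (0.0445). Fosb, also named after its values were seen, went the other way, with means of 1.70 ± 0.75 and 0.85 ± 0.12 CPM. It was not past the threshold (adjusted p 0.0675 by edgeR), but edgeR called it lower with no filter (0.019) or without control 2 (0.0412). Jund, the list's most abundant gene per kilobase, was at 183 ± 7.65 and 161 ± 24.1 CPM and not past the threshold; it was called lower without edited 2 (0.00448). The falls numbered 1 without control 1, control 3 or edited 3, 4 without control 2 and 5 without edited 2, and the rises 2 without control 2. With Myl7 as a covariate, or control 2 as the only control, 0 early response genes were called in edgeR; the adjusted p of Atf3 was then 0.056 and 0.186. The CRE core was in at least 1 window of 18 of the 29 early response genes that had a promoter window. Counted by window, it was in 64.1% of the 39 windows of these genes. That share was 20.8% over all windows and 31.6% over those with at least 60% G or C. These genes had at most 3 cores in a window (Dusp1), against 4 in each receptor's, a number taken from the receptors themselves.

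Partners and coregulators of the receptors came to 14 genes. Of these retinoid X receptors, p160 coactivators, corepressors and repressor complex members such as Rcor1, Kdm1a and Hdac2, 1 fell and 0 rose in edgeR's test, where 4.74% and 4.93% of all tested genes did, and 1 gene of 14 cannot be told from that share. The median log2 change was -0.01. The fall was that of Rxrg, at 39.95, 36.7 and 39.4 CPM in controls 1, 2 and 3 and 24.7, 30.3 and 24.1 CPM in edited 1, 2 and 3. Retinoid X receptors pair with Nr4a1 and Nr4a2, and not with Nr4a3. The groups of Rxrg did not overlap, and its log2 change was -0.55 (SE 0.09). With Myl7 as a covariate it was -0.47 (adjusted p 0.0888) and with control 2 as the only control -0.48 (0.197), so the call was lost and the size changed little. Rxra, named after its values were seen, was at 64.7 ± 1.52 and 61.3 ± 3.46 CPM (SD, n = 3). Hdac2, the list's most abundant gene per kilobase, was at 96.4 ± 4.23 and 94.9 ± 4.23 CPM.

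Of 19 genes reported to respond to NR4A receptors in muscle, all tested, 7 fell and 0 rose in edgeR's test, where 4.74% of all genes fell, and the median log2 change was -0.13. The list joins genes of glycogen and glucose use, uncoupling proteins, fatty acid transport and oxidation, and coactivators; it was chosen with results of these data known, so its count is a description. Ppargc1a, a coactivator of mitochondrial genes, was at 192, 164 and 201 CPM in controls 1, 2 and 3 and 109, 102 and 106 CPM in edited 1, 2 and 3. Lpin1, a phosphatidate phosphatase that also coactivates fatty acid oxidation genes, was at 100, 111 and 121 CPM in controls and 67.8, 67.6 and 71.7 CPM in edited hearts. Neither had overlapping groups, with log2 changes of -0.81 (SE 0.07, adjusted p 5.34e-05) and -0.68 (SE 0.07, adjusted p 1.13e-04), and both were called under every alternative run.

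Smaller falls came from some of the list's genes of glycogen and glucose use. Others, among them Pgam2, Bpgm and Phka1, were not called, with log2 changes of 0.06, -0.05 and -0.18. These were named after their values were seen. Pygm, the muscle glycogen phosphorylase, fell from 859 ± 15.1 to 705 ± 13.9 CPM, the muscle enolase Eno3, the list's most abundant gene per kilobase, from 1383 ± 77.1 to 1145 ± 26.4, the phosphofructokinase Pfkm from 795 ± 14.6 to 684 ± 7.22, and the muscle fructose bisphosphatase Fbp2 from 29.6 ± 4.93 to 19.97 ± 1.90 (SD, n = 3). Their adjusted p in edgeR were 0.0025, 0.00566, 0.011 and 0.0171. Pfkm shares 8.34% of its exon bases with other genes, in part with Senp1 on the opposite strand. The other fall was that of the uncoupling protein gene Ucp2, from 363.6 to 305.0 CPM (adjusted p 0.026 by edgeR), outside the naming rule and given after its values were seen; its call was lost when any library but edited 2 was left out. Without control 3 the falls numbered 3, as those of Eno3 (0.0745), Pfkm (0.101), Fbp2 (0.105) and Ucp2 (0.0924) were lost; Pfkm was also lost without edited 3 (0.0505) and Fbp2 without edited 2 (0.0557). With Myl7 as a covariate, or with controls 1 and 3 left out, 2 falls were called, those of Ppargc1a and Lpin1. None of the 15 genes of this list with a promoter window had an NBRE match there. The motif is in 1.51% of all windows, so its absence from so few genes says little about binding.

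The genes most like each receptor over the 6 libraries were found by the root mean square difference of log2 CPM after centring each gene on its own mean, among genes with at least 5 CPM. For Nr4a3 they were Atf3 (0.33), Art1 (0.37), Cntn2 (0.43), Klhl33 (0.44) and the mitochondrial COX3 (0.46), whose counts are uncertain because near-identical nuclear copies exist. All 5 were lower in every edited library, which their choice by likeness to Nr4a3 brings with it. For Nr4a1 they were Rgs2 (0.09), a regulator of G protein signalling, Myocd (0.09), the coactivator myocardin, Phospho1 (0.10), Smco1 (0.10) and Mettl10 (0.11), with log2 changes of -0.34 to -0.60. For Nr4a2 they were Ccrl2, Rwdd2b, Slc35g2, Cbx8 and Tob1 (0.10 to 0.14), none with separate groups. Among the receptors, Nr4a1 and Nr4a2 differed by 0.23, Nr4a1 and Nr4a3 by 0.68 and Nr4a2 and Nr4a3 by 0.86. Nr4a2 was the gene of rank 706 in likeness to Nr4a1, and Nr4a1 that of rank 63 in likeness to Nr4a3, of 10663 genes.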

How the data were processed

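RNA was measured in 3 edited and 3 control mouse heart libraries. The authors deposited raw read counts per gene with the exon length of each gene. The tools named in the submitters' processing notes are STAR, featureCounts, cutadapt and FastQC, run on build mm10; their versions, strand setting and handling of multimapping reads were not given in the sources used here. Each library has 2 columns of counts, and 0 genes differed between them, so 1 was used. Replicates differed beyond sampling noise (chi-square per degree of freedom 3.95 to 14.4).

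The members and gene lists were chosen with earlier results of these data known. Genes were kept by filterByExpr, which left 14879, scaled by TMM and fitted with edgeR 4.0.16 (quasi-likelihood, robust, R 4.3.3), with Benjamini-Hochberg adjustment over all tested genes and a threshold of 0.05. The SE is the log2 change divided by the root of the F statistic. The receptors have no p. CPM per kilobase divides CPM by exon length. Counting intervals are exact 95% Poisson and cover counting error only. The p-values set the difference between the groups against the spread between libraries, which are not stated to be separate animals. The steps were tested on simulated counts. Alternatives were other scalings, filters, DESeq2 1.42.0, limma 3.58.1 voom, a replicate block, leaving out libraries, and Myl7 as a covariate. Besides the receptors and Camk2d, named genes were the called members of each list (the 6 with the smallest p where more were called), the most abundant per kilobase, the 5 genes most like each receptor, and atrial markers; Gm and Rik symbols, pseudogenes and names that are only identifiers were left out of the last.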

Additional observations from a re-analysis of the deposited data

How the results depend on the processing

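With all libraries and no covariate 1438 genes were called. The count was 2239 with no filter, 2285 with voom, 126 with Myl7 as a covariate and 82 with control 2 as the only control, a fit whose spread comes from the edited libraries alone; it was 386 to 1661 leaving out 1 library. Upper-quartile scaling gave 849 higher and 531 lower calls against 733 and 705. The log2 change of Nr4a3 was -1.36 with Myl7 as a covariate and -1.998 to -1.55 leaving out 1 library. That of Nr4a1 was -0.33 with the Myl7 covariate and -0.60 to -0.35 leaving out 1 library. That of Nr4a2 was 0.30 with the Myl7 covariate and -0.27 to 0.10 leaving out 1 library. With control 2 as the only control the fitted changes of Nr4a1, Nr4a2 and Nr4a3 were -0.33, 0.25 and -1.41. With the Myl7 covariate, calls numbered 0 lower among inducing signals, 0 higher and 0 lower among early response genes and 0 lower among partners. They numbered 2 lower among muscle genes, and 0 higher and 2 lower among other receptors (Thrb, and Vdr, which was not among the 6 falls). In that fit 0.551% of all tested genes were lower and 0.296% higher. With voom 1 inducing signal was higher and 5 early response genes higher and 7 lower, where 8.02% of all tested genes were higher and 7.33% lower. With no filter 2 inducing signals and 1 muscle gene were higher, where 5.14% of all tested genes were. With DESeq2 1 inducing signal was higher, where 4.15% of all tested genes were. Leaving out 1 library gave 0 to 2 higher and 1 to 4 lower inducing signals, 0 to 4 higher and 1 to 5 lower early response genes, 0 to 1 higher and 3 to 6 lower muscle genes, and 0 to 3 higher and 3 to 6 lower other receptors, while 1.24% to 6.0% of all tested genes were higher and 1.31% to 5.04% lower. The Myl7 fit rests largely on control 2, and the cause of these shifts was not tested.

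Over all genes the replicate numbers showed no sign of pairing the libraries, which does not exclude it. Deviations of same-numbered libraries correlated at 0.02, -0.0957 and -0.0756, and controls 2 and 3 each correlated best with another number. With the replicate number as a block 1077 genes were called, 4.17% of those tested higher and 3.07% lower. Lower calls were 1 inducing signal, 3 early response genes, 1 partner, 6 muscle genes and 5 other receptors, and higher ones 1 early response gene and 2 other receptors. The calls of Prkaca (adjusted p 0.0665), Btg1 (0.0534), Dusp4 (0.0522), Pfkm (0.053), Ppard (0.0585) and Rarb (0.0944) were lost in edgeR. That of Rgs2, an early response gene, was gained (0.00474). With the block Nr4a1, Nr4a2 and Nr4a3 had log2 changes of -0.50, -0.10 and -1.75. Their SEs were 0.08, 0.17 and 0.11, against 0.15, 0.20 and 0.30 without the block. Nr4a2 rests on 52 to 94 counts per library, and both counting and the spread between libraries limit its precision.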
